A study of Mus musculus with 24 samples.

Results

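The genes that handle zinc in β cells were examined in offspring of mothers fed different diets. The 10 genes were Slc30a8, Slc30a1, Slc30a5 and Slc30a7 of the SLC30 family, Slc39a1, Slc39a6, Slc39a7 and Slc39a14 of the SLC39 family, and the metallothionein genes Mt1 and Mt2. They were chosen by symbol, each was found in exactly 1 row among the 33619 genes of the count table, and all 10 were among the 19235 genes with enough counts to be tested. The cells came from mice of genotype Ins1Apple, in which a fluorescent protein marks β cells. Their CD1 mothers received, in the 2 weeks before mating to Ins1Apple males, either control food (ND), food rich in fat (HFD) or food poor in protein (LPD). From birth on, every animal ate the control diet, so the groups differ in what the mothers ate, not in what the offspring ate. Islets were taken at about 7 weeks of age, cells were sorted by Apple fluorescence, and ribosomal RNA was removed before sequencing. There were 6 groups of 4 libraries each: ND females, HFD females, LPD females, ND males, HFD males and LPD males. The labels name no dam, litter or sequencing batch, and do not say whether a library was 1 animal or a pool, so the p-values measure only the spread between these samples.

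Diet was taken from the column names of the table. A line above those names gives library numbers that place all 24 columns in another diet: by the numbers, columns named HFD would be ND, those named LPD would be HFD and those named ND would be LPD. The numbers also place 8 ND columns in the other sex, while the sex-linked counts of all 24 libraries matched the column names. The Y-linked gene Ddx3y had 714 to 1248 counts in male libraries and 0 to 12 in female libraries, except 89 in ND female 2. For diet no such check exists, so every diet direction given here holds for the column names only. The libraries held 12433228 to 26375565 counts (median 20719858). The 4 HFD female libraries detected 13225 to 19404 genes and the other 20 detected 19160 to 25830. HFD female 1 and 4 had the fewest counts of all 24 libraries (12782173 and 12433228) and the fewest genes detected (13813 and 13225). All 9 β-cell markers (Ins1, Ins2, Iapp, Pdx1, Nkx6-1, Mafa, Slc2a2, Ucn3 and G6pc2) were detected in every group, with a summed level of 80985 to 322875 CPM. CPM are counts scaled to a common library size, here after TMM scaling, which adjusts each library's total for its composition. The 11 hepatocyte markers (such as Alb and Apoa1) summed to 127 to 217 CPM in HFD females and 73.9 to 133 CPM in HFD males, and to 1.18 to 6.61 CPM in the ND and LPD libraries. No hepatocyte marker was at 0 throughout an HFD group, whereas 5 to 7 of the 11 were at 0 in every library of each ND and LPD group, Cps1, Cyp3a11 and Mug1 in all of these groups. In such bulk RNA, fewer cells of a type and less RNA per cell cannot be told apart.

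Zinc ions are packed with insulin in the secretory granules of β cells, where they hold insulin hexamers together, and they are released with insulin. SLC30 (ZnT) proteins lower zinc in the cytosol by moving it into organelles or out of the cell, and SLC39 (ZIP) proteins move zinc into the cytosol from outside or from organelles. Metallothioneins are small, cysteine-rich proteins of the cytosol that bind zinc and copper. When zinc rises, the zinc sensor MTF1 binds metal response elements and turns on the metallothionein genes and Slc30a1.

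The promoters of Mt1, Mt2 and Slc30a1 are printed because these genes are the classical targets of MTF1 among the 10. Each window runs from 250 bases before to 50 bases after the gene start in RefSeq (GRCm38.p6), 5′ to 3′ on the gene's own strand, which is the plus strand for all 3. The windows are chr8:94172368-94172667 for Mt2, chr8:94178839-94179138 for Mt1 and chr1:191906531-191906830 for Slc30a1. Capitals mark the core of the metal response element, TGCACNC or TGCGCNC, searched on both strands, so that a match on the opposite strand is seen as its reverse complement.
Mt1: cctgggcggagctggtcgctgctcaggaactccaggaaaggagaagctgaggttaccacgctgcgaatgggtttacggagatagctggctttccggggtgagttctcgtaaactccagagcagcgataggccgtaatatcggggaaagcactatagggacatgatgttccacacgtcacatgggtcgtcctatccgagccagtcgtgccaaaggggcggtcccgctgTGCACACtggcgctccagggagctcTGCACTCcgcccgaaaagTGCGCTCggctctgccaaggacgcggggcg
Mt2: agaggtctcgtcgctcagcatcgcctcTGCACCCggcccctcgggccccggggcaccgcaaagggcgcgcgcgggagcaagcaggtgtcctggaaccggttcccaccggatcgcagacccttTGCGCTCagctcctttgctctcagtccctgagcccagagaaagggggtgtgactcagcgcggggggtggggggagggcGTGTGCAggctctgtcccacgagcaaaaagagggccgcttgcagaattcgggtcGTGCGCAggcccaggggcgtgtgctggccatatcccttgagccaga
Slc30a1: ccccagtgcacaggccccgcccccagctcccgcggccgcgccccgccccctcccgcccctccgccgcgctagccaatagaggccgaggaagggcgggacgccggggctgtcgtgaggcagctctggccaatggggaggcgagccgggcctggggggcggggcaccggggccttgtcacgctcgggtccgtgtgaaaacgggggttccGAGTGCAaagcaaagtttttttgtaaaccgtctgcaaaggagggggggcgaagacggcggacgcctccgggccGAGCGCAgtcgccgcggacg

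Mt2 held 4 matches, Mt1 held 3 and Slc30a1 held 2. Mt1's matches began -23, 2 and 20 bases from the RefSeq start. Of 32851 promoter windows of the same 300 bases, 25.7% held at least 1 match, 1.97% at least 3 and 0.517% at least 4. A window was given for 7 of the 10 genes. Among the other 4, Slc30a5 held 1 match, and Slc39a1, Slc30a7 and Slc39a7 held 0. A match is a description of letters, not a measured site, and the windows follow 1 start per gene: coding transcripts of Mt1 in GENCODE M21 began from -7 to 152 bases from it, and those of Mt2 46 and 242 bases after it.

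The levels of the 10 genes were ranked by FPKM, which divides counts by gene length as well as by library total. The length is that of the table, which for some genes exceeds the longest coding transcript. It was 7294 against 3179 bases for Slc30a5 and 10550 against 4926 for Slc39a14, but 2364 in both for Slc39a1. The order of close neighbours therefore depends on the length used. Slc30a8, which fills insulin granules with zinc, stood far above the rest at 494 ± 52.3 FPKM (SD, n = 24). Mt1 followed at 79.4 ± 20.2 FPKM. Both steps held in all 24 libraries, with Slc30a8 6.22 times the mean of Mt1 and Mt1 5.44 times the mean of the next gene.

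Next came Slc39a1, a zinc importer of the plasma membrane, at 14.6 ± 3.39 FPKM, and Slc30a5, a transporter of the early secretory pathway, at 13.5 ± 2.08 FPKM. In FPKM these neighbours did not differ beyond their spread, with Slc39a1 the higher in 13 of 24 libraries. Before division by length, Slc30a5 had a mean of 98.4 CPM and Slc39a1 of 34.5 CPM, so their closeness depends on the length used. Slc39a6, an importer of the plasma membrane, had 11.7 ± 1.28 FPKM and lay within the spread of Slc30a5, which was higher in 18 of 24 libraries. Below a step that held in all 24 libraries were Slc30a7 (6.97 ± 0.991 FPKM), a Golgi transporter, Mt2 (5.61 ± 5.60 FPKM), Slc39a7 (3.83 ± 1.09 FPKM), which releases zinc from the endoplasmic reticulum, Slc30a1 (3.27 ± 0.562 FPKM), which exports zinc from the cell, and Slc39a14 (2.46 ± 0.297 FPKM), which imports zinc and iron. Each of these 5 overlapped its neighbour within the SD ranges. Mt2 was the most variable of the 10, with a coefficient of variation of 94.0% in CPM, against 8.86% for Slc39a6 and 12.3% for Slc30a8.

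**Figure D1:**
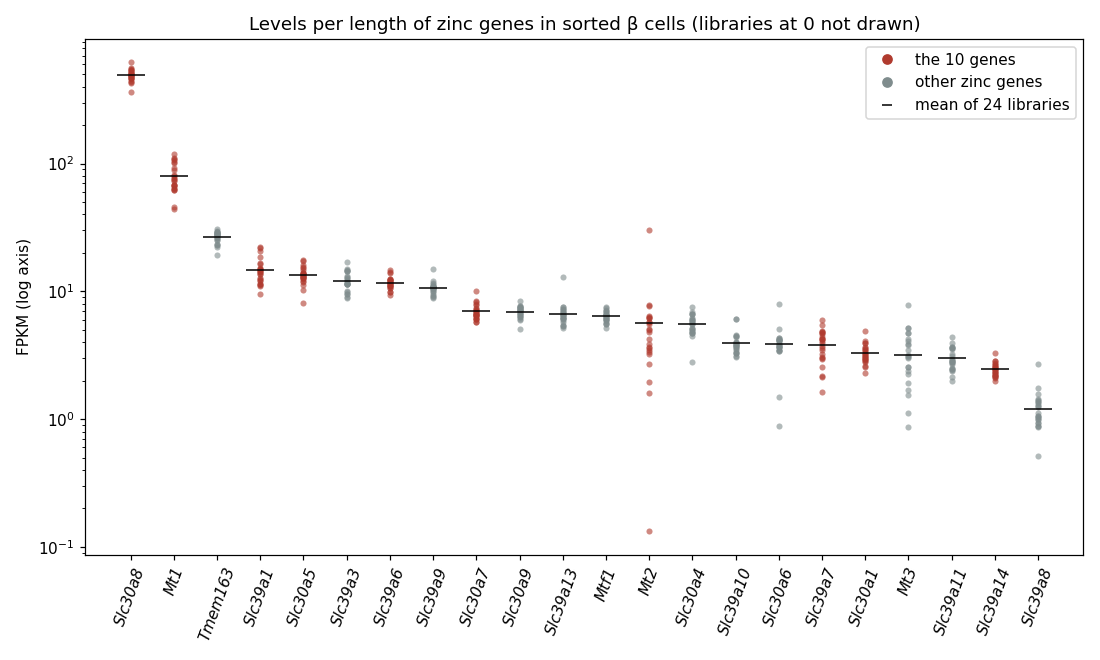
FPKM on a log axis for the 10 genes (red) and the other zinc genes with a mean of at least 0.5 FPKM (grey), 1 point per library and a bar at the mean of 24 libraries. Slc30a8 and Mt1 stand above every other gene drawn, and Mt2 spreads from 0.133 to 30.4 FPKM.

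Some counts may hold reads of a neighbour or a copy. Slc39a7 overlaps the transcript Gm20427 on the same strand over 3312 bases, and 2249 of its 50-base windows occur in that transcript too. Slc39a1 shares 504 such windows with a processed copy, Slc39a1-ps, which had 14 counts over all libraries against 17234 for Slc39a1. Antisense transcripts overlap Mt2 (Gm45774, 749 bases) and Slc30a1 (1700034H15Rik, 761 bases), and Elp2 overlaps Slc39a6 from the opposite strand over 952 bases. Over all libraries Gm45774 had 1108 counts against 1525 for Mt2, and 1700034H15Rik 595 against 8381 for Slc30a1. Elp2 had 35891 against 23403 for Slc39a6, and Gm20427 335 against 5025 for Slc39a7. The libraries were strand specific, but the strand setting of the counting is not given in the sources used here, so reads of such partners cannot be told apart. Mt1 and Mt2 lie next to each other on chromosome 8 (94179082 to 94180327 and 94172664 to 94173568), and their transcripts share no run longer than 20 bases.

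Diet and sex were compared by edgeR's quasi-likelihood test over all 19235 genes, with Benjamini-Hochberg adjustment and a call at an adjusted p below 0.05. Of 120 tests, 10 genes in 12 comparisons, 3 were called: Mt1 in HFD against LPD over both sexes and in males, and Slc39a1 in HFD against LPD over both sexes. For HFD against LPD over both sexes, that is 2 of 10 members, while 9.99% of all genes tested were called. In males it was 1 of 10 members against 2.41% of all genes, and in females 0 of 10 against 8.64%. In that last comparison, 1 member had an unadjusted p below 0.05, as had 4095 of all genes tested, and DESeq2 and limma-voom called 0 members against 2303 and 88 of all genes.

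No member was called by edgeR between either experimental diet and ND. For HFD against ND over both sexes the background was 7.2% of genes, 3 members and 3677 of all genes had an unadjusted p below 0.05, and DESeq2 and voom called 0 members against 1840 and 638 of all genes. HFD against ND gave 9.33% of genes in females and 1.25% in males, with 1 and 2 members at an unadjusted p below 0.05 beside 4233 and 1831 of all genes. DESeq2 called 1 member in each of these, and voom called 0 in females and 2 in males. Over all genes DESeq2 called 2556 in females and 574 in males, and voom 94 and 4202. LPD against ND was a smaller contrast across the genome, with 0.832% of genes called over both sexes, 0.307% in females and 0.187% in males. Members at an unadjusted p below 0.05 numbered 2, 3 and 0 in these, beside 1790, 1458 and 1081 of all 19235 genes. DESeq2 called 1, 1 and 0 members, beside 467, 367 and 156 of all genes. Voom with library weights called 4, 3 and 3 members, beside 3884, 1451 and 3953 of all genes. All diet contrasts share libraries, so the calls are not independent of each other. The members' median log2 fold change over both sexes was 0.036 for HFD against ND, 0.013 for LPD against ND and 0.013 for HFD against LPD, beside -0.056, -0.008 and -0.054 over all genes tested.

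**Figure D2:**
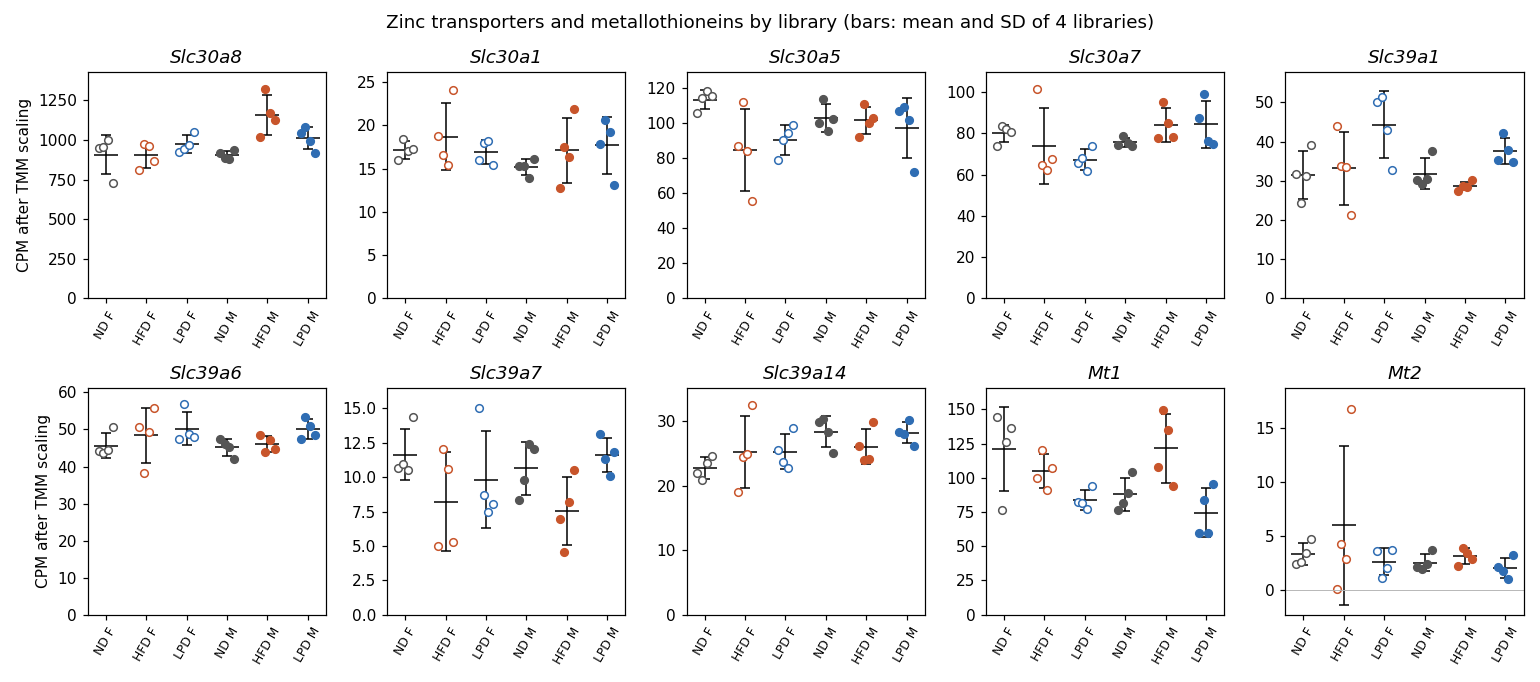
CPM after TMM scaling of each gene in the 24 libraries, by diet and sex (open circles females, filled circles males), with the mean and SD of 4 libraries. Mt1 in HFD males, at 94.3 to 149 CPM, sits mostly above LPD males, at 59.6 to 95.2 CPM, and 1 HFD female library stands far above the others for Mt2.

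**Figure D3:**
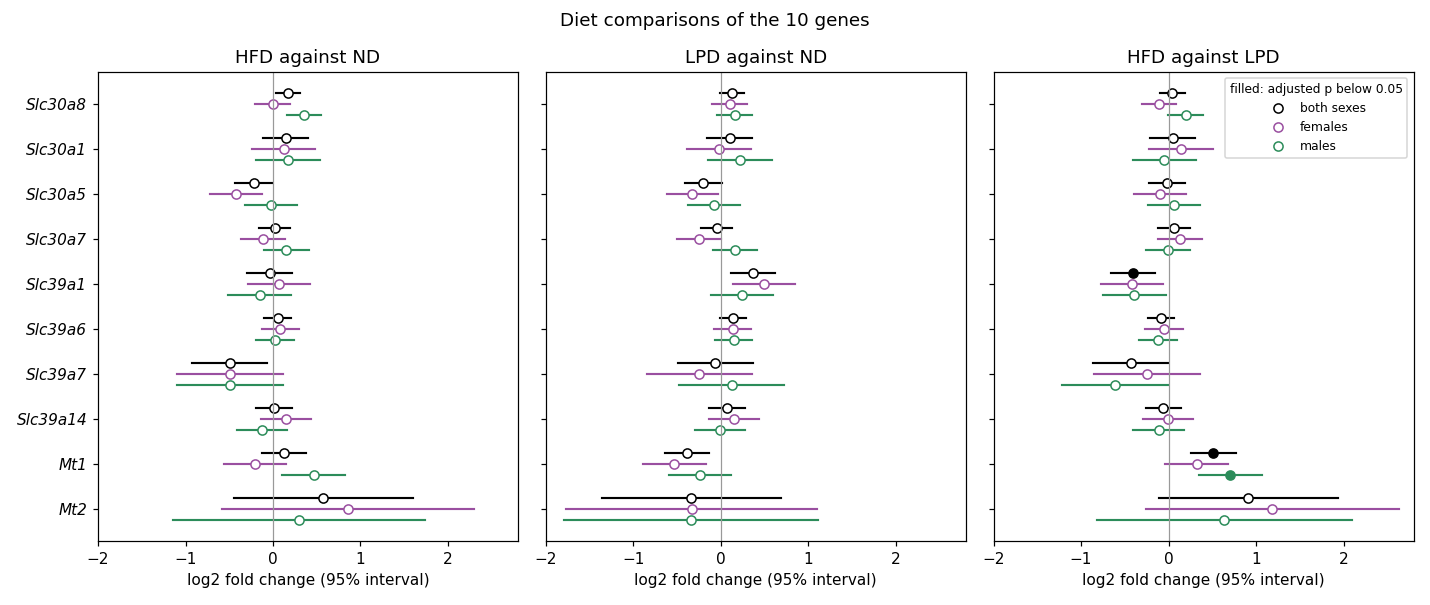
Log2 fold change of each gene with its 95% interval for the 3 diet comparisons, over both sexes, in females and in males, from the edgeR fit; filled points were called. The filled points are Mt1 at 0.51 and 0.70 and Slc39a1 at -0.40, all in HFD against LPD.

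Mt1, the more abundant metallothionein gene, was higher after maternal HFD than after maternal LPD. In HFD females it measured 99.9, 120.5, 91.0 and 107 CPM, and in LPD females 82.2, 81.8, 77.3 and 93.7 CPM. In HFD males it measured 108, 149, 135 and 94.3 CPM, and in LPD males 59.9, 83.6, 59.6 and 95.2 CPM. In each sex 3 of the 4 HFD libraries lay above every LPD library, and 1 HFD library of each sex fell inside the LPD range. Over both sexes the log2 fold change was 0.51 ± 0.12 (SE), or 1.43-fold, with an adjusted p of 0.00804 by edgeR.

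The rise was called in males (log2 fold change 0.70 ± 0.17, adjusted p 0.0290 by edgeR), whereas in females it was 0.32 ± 0.17 (adjusted p 0.296). Whether HFD against LPD differed between the sexes was not tested. The call over both sexes held without any 1 library, with log2 fold changes of 0.46 to 0.69 and adjusted p of 0.000703 to 0.0238 over these and the other settings under the column names. The call in males was lost without HFD male 2 or 3 or LPD male 1 or 3, with an adjusted p of up to 0.153.

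ND libraries stood between or beside these groups. Mt1 measured 145, 76.6, 126 and 136 CPM in ND females and 76.7, 81.8, 88.5 and 105 CPM in ND males. In females ND thus ran highest apart from ND female 2, which was lower than every library of the other female groups, and in males ND lay between LPD and HFD. ND female 2 also had the lowest share of counts from Ins1 and Ins2 of all libraries (7.65%). Its summed β-cell markers were the lowest too (80985 CPM), and its 89 Ddx3y counts were the most of any female library. Against ND, the log2 fold change of HFD was -0.21 ± 0.17 in females and 0.47 ± 0.17 in males (adjusted p 0.522 and 0.255 by edgeR). For males the adjusted p was 0.0185 with only the compared groups in the fit and 0.000410 by voom. The difference between the HFD effects in males and females, 0.67 ± 0.25, had an adjusted p of 0.136, and reached 0.84 with an adjusted p of 0.0356 without ND female 2. LPD against ND was -0.53 ± 0.17 in females and -0.24 ± 0.17 in males (adjusted p 0.245 and 1 by edgeR), and -0.38 ± 0.12 over both sexes (adjusted p 0.172 by edgeR, 0.0486 by DESeq2 and 0.000429 by voom). DESeq2 and voom also called Mt1 for LPD against ND in females, and voom did in males (adjusted p 0.0128). In each of these contrasts voom called more of all genes than edgeR did.

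Other measures moved with Mt1. The hepatocyte markers given above were higher in every HFD library than in every LPD library, and metallothioneins are also abundant in liver. Those markers were highest in HFD females, where Mt1 was 91.0 to 120.5 CPM. Mt1 was 145, 126 and 136 CPM in ND female 1, 3 and 4 and 76.6 CPM in ND female 2. Mt1 has a length of 1246 bases in the table, and short genes moved as a class: among genes with a mean of at least 10 CPM, the 446 of 1500 bases or less had a median log2 fold change of 0.153 for HFD against LPD over both sexes, and the 8510 longer genes -0.055. In males these medians were 0.255 and -0.045. Mt1 stood at 0.51 and 0.70, with 95% intervals that began at 0.26 and 0.34. A median does not give the spread of single genes in the class, so setting Mt1 beside it is not a test. This split by length was chosen after the values were seen, and the part of either measure in the result was not tested. Other cell markers separated the same groups within 1 sex. The acinar markers summed to 221 to 417 CPM in HFD males and 541 to 982 CPM in LPD males, and the delta cell markers to 207 to 329 CPM in HFD females and 414 to 482 CPM in LPD females. Their part in the result was not tested.

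**Figure D4:**
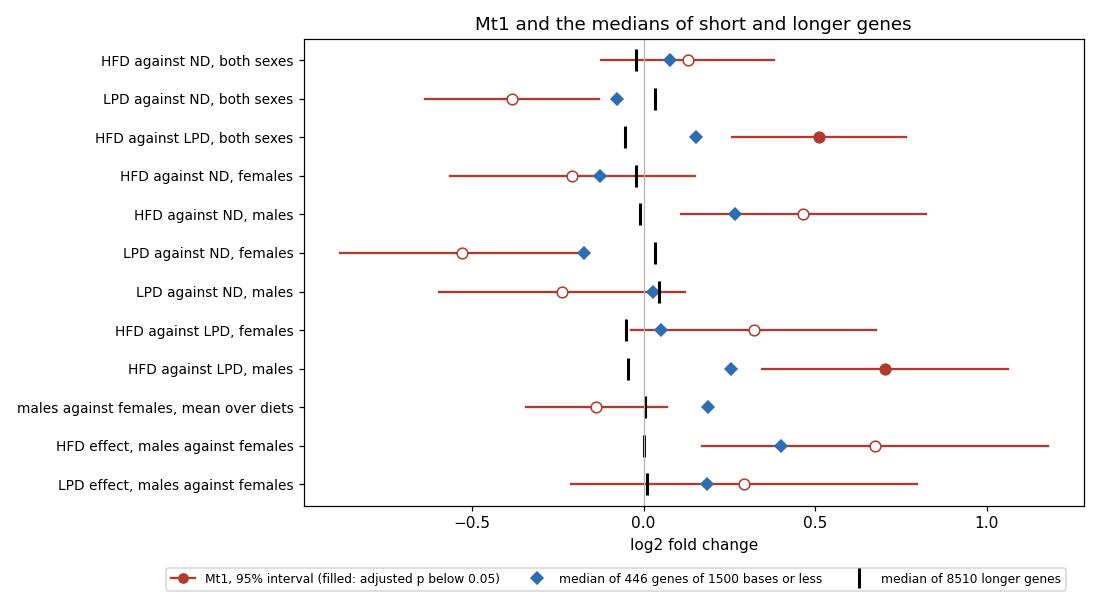
Log2 fold change of Mt1 with its 95% interval in the 12 comparisons (circles, filled where called), the median of 446 genes of 1500 bases or less (diamonds) and of 8510 longer genes (bars). For HFD against LPD in males Mt1 stands at 0.70, short genes at 0.255 and longer genes at -0.045.

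Mt2 was expressed far below Mt1 and could not be measured evenly. Its counts ran from 1 in HFD female 1 to 222 in HFD female 4, and from 21 to 118 in the other 22 libraries. In HFD females that is 0.0706, 4.30, 2.87 and 16.7 CPM, against 1.13 to 3.72 CPM in LPD females and 2.44 to 4.69 CPM in ND females. HFD female 1 and 4 thus lay below and above every other library. They were also the libraries with the fewest counts and the fewest genes detected, and the part of this in their Mt2 values was not tested. In HFD males the range of Mt2 was 2.24 to 3.93 CPM, in LPD males 1.02 to 3.22 CPM and in ND males 1.95 to 3.73 CPM, so the male groups overlapped.

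For HFD against LPD over both sexes, Mt2's log2 fold change was 0.91 ± 0.50 (adjusted p 0.294 by edgeR). That value rested on these libraries. It was 1.12 with an adjusted p of 0.0376 without HFD female 1, 0.27 (adjusted p 0.745) without HFD female 4, and 0.55 (adjusted p 0.210) without both. In females alone the same contrast went from 1.19 with all libraries to 1.59 (adjusted p 0.0446) without HFD female 1, and to -0.10 (adjusted p 0.947) without HFD female 4. With all libraries, the 95% interval for HFD against LPD over both sexes was -0.11 to 1.94.

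**Figure D5:**
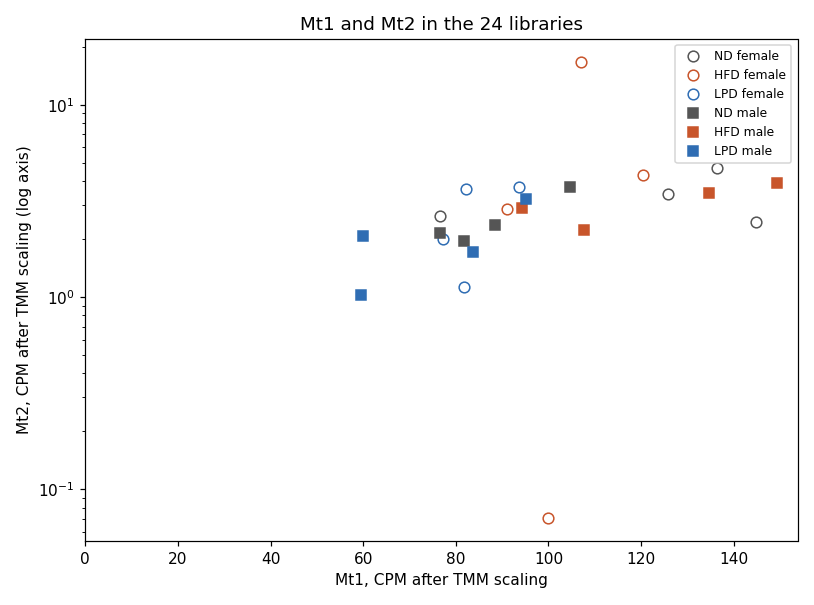
Mt1 against Mt2 in the 24 libraries, both as CPM after TMM scaling, Mt2 on a log axis (circles females, squares males). Apart from HFD female 1 at 0.0706 CPM and HFD female 4 at 16.7 CPM, Mt2 lies between 1.02 and 4.69 CPM.

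Whether the MTF1 targets varied together was examined on deviations from the group means in 24 libraries. Mt1 and Mt2 had a Pearson r of 0.30 (permutation p 0.0559, adjusted 0.168 over 3 pairs) and a Spearman rho of 0.52 (permutation p 0.0114, adjusted 0.0342). Without the libraries farthest from the median of Mt1, ND female 2 and LPD male 4, r was 0.29. The linear relation thus failed the correction, and the rank relation passed it. Mt1 and Slc30a1 gave r -0.27 (permutation p 0.288, adjusted 0.433) and rho -0.31 (permutation p 0.211, adjusted 0.317), with r -0.10 without the same libraries. Mt2 and Slc30a1 gave r 0.11 (permutation p 0.774, adjusted 0.774) and rho -0.18 (permutation p 0.472, adjusted 0.472), with r -0.27 without HFD female 1 and 4. The libraries share depth and composition, which these values do not remove.

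Slc30a8, the granule transporter, was steady across groups in females and highest in HFD males. In HFD males it measured 1016, 1319.6, 1170.4 and 1123 CPM, and in ND males 919.7, 888, 878 and 935 CPM. LPD males had 1047, 1079.7, 991 and 921 CPM. All 4 HFD male libraries lay above every ND male library, and 3 of them above every LPD male library. HFD against ND in males was 0.35 ± 0.10, or 1.28-fold (adjusted p 0.0665 by edgeR), and thus not called.

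That value sat near the threshold. The adjusted p was below 0.05 under DESeq2 (0.00863), under voom (2.84e-06), with only the compared groups in the fit (0.00592), and without HFD female 1 (0.0477), HFD female 4 (0.0498), HFD male 1 (0.0442) or ND female 4 (0.0245). In females Slc30a8 ranged from 813 to 972 CPM under HFD, 925 to 1052 CPM under LPD and 726 to 998 CPM under ND, and the groups overlapped. HFD against ND in females was -0.01 ± 0.10, with a 95% interval of -0.20 to 0.19. The effect of HFD differed between the sexes by 0.36 ± 0.14 (adjusted p 0.156, and 0.0263 without ND female 4). The summed β-cell markers, which do not include Slc30a8, were 226918 to 322875 CPM in HFD males against 175464 to 220157 CPM in ND males. LPD males had 125949 to 263193 CPM and overlapped HFD males. Ins1 and Ins2, which are in that sum, made up 20.5 to 27.5% of counts in HFD males and 15.7 to 18.2% in ND males. The hepatocyte markers also separated HFD males (73.9 to 133 CPM) from ND males (1.85 to 2.52 CPM). The part of these markers in the result was not tested.

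The other transporters that remove zinc from the cytosol did not pass the test. Slc30a5, which loads zinc into the secretory pathway, measured 86.9, 112, 84.1 and 55.3 CPM in HFD females and 106, 114, 118 and 115 CPM in ND females. LPD females had 78.8, 90.5, 94.2 and 98.8 CPM. All LPD female libraries and 3 of 4 HFD female libraries lay below every ND female library. HFD against ND in females was -0.42 ± 0.14 (adjusted p 0.0685 by edgeR), and LPD against ND -0.32 ± 0.14 (adjusted p 0.561 by edgeR and 0.0258 by voom, which called 7.54% of all genes in that contrast).

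For HFD against ND in females the adjusted p of Slc30a5 fell below 0.05 with no filter on low counts (0.0308), under DESeq2 (0.0498), under limma on log2 FPKM plus 0.1 (0.0466), and without HFD female 2 (0.00448) or LPD male 4 (0.0371). In males Slc30a5 ranged from 72.2 to 114 CPM over the 3 diets, and both diets' 95% intervals against ND covered 0. Slc30a7, which supplies zinc to enzymes of the Golgi, measured 101, 64.6, 62.0 and 67.5 CPM in HFD females and 74.0 to 83.3 CPM in ND females. HFD female 1 was the highest library of all 24 and the other 3 HFD females lay below all ND females. All 4 LPD female libraries, at 61.9 to 73.6 CPM, also lay below every ND female. HFD against ND in females was -0.12 ± 0.12 (adjusted p 0.629 by edgeR), and -0.31 (adjusted p 0.0462) without HFD female 1. LPD against ND in females was -0.25 ± 0.12 (adjusted p 0.672 by edgeR).

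Slc30a1, the exporter of the plasma membrane, had 12.8 to 24.1 CPM over the 24 libraries. The ranges of all 6 groups overlapped each other, and its 12 adjusted p by edgeR ran from 0.594 to 1. Its largest log2 fold change between diets was 0.22 ± 0.18, for LPD against ND in males. In that contrast voom called it (adjusted p 0.0415), in a fit that called more of all genes than edgeR did. For HFD against LPD over both sexes, where Mt1 was called, the log2 fold change of Slc30a1 was 0.05 ± 0.12 (95% interval -0.21 to 0.30).

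Among the importers, Slc39a1 was lower after maternal HFD than after maternal LPD. In HFD females it measured 43.9, 33.9, 33.5 and 21.2 CPM, and in LPD females 50.2, 51.4, 43.0 and 32.7 CPM. In HFD males it measured 27.5, 28.6, 28.3 and 30.1 CPM, and in LPD males 35.4, 42.2, 37.9 and 34.7 CPM. All 4 HFD male libraries lay below all LPD male libraries, and the female groups overlapped. Over both sexes the log2 fold change was -0.40 ± 0.12, or 1.32-fold lower, with an adjusted p of 0.0340 by edgeR.

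The call on Slc39a1 was close to the threshold. It was lost without any 1 of 7 libraries (HFD male 1, 2 or 3, LPD female 1 or 2, LPD male 2 or 3), with an adjusted p of up to 0.0774. It was also lost under median-of-ratios (RLE) scaling (adjusted p 0.0520), under limma on log2 FPKM plus 1 (0.0520) and with only the compared groups in the fit (0.0835). Within females and within males the values were -0.42 ± 0.17 and -0.39 ± 0.17 (adjusted p 0.148 and 0.341 by edgeR). In females the adjusted p was 0.0284 without HFD female 1. In males voom and the fit with only the compared groups called Slc39a1. ND libraries, at 24.3 to 39.1 CPM in females and 29.1 to 37.6 CPM in males, were near the HFD libraries. HFD against ND over both sexes was -0.04 ± 0.12, and LPD against ND was 0.36 ± 0.12 (adjusted p 0.197 by edgeR, and 0.0420 with only the compared groups in the fit). The latter was also called by voom and without HFD female 1 and 4. LPD against ND in females was 0.49 ± 0.17 (adjusted p 0.301 by edgeR and 0.00127 by voom). The hepatocyte markers over both sexes, the acinar markers in males and the delta cell markers in females separate HFD from LPD here too, and their part was not tested.

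Slc39a7, the zinc channel of the endoplasmic reticulum, had the lowest counts of the transporters, from 64 to 362 a library. In HFD females it measured 5.02, 12.03, 10.57 and 5.28 CPM, and in HFD males 6.94, 4.57, 8.17 and 10.5 CPM. ND females had 10.5 to 14.4 CPM and ND males 8.30 to 12.4 CPM. The lowest libraries were HFD libraries in each sex, yet 2 HFD female libraries and 1 HFD male library lay inside the ND range of their sex. HFD against ND over both sexes was -0.49 ± 0.21 (adjusted p 0.178 by edgeR), and -0.62 (adjusted p 0.0439) without HFD female 2. HFD against LPD was -0.43 ± 0.21 over both sexes (adjusted p 0.221 by edgeR). In males HFD against LPD was -0.61 ± 0.30 (adjusted p 0.412 by edgeR). There voom called it (adjusted p 0.0141), in a fit that called more of all genes than edgeR did.

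Slc39a6 and Slc39a14, importers of the plasma membrane, were not called by edgeR. Slc39a6 had 38.2 to 56.8 CPM over the 24 libraries, and its log2 fold changes between diets lay between -0.12 and 0.15 with adjusted p of 0.558 or more by edgeR. For LPD against ND over both sexes voom called it (0.15, adjusted p 0.0375), in a fit that called 20.2% of all genes. LPD males had 47.5 to 53.4 CPM and ND males 42.1 to 47.5 CPM, so these groups met at their edges. Slc39a14, a transporter of zinc and iron, had 19.0 to 32.5 CPM, and its log2 fold changes between diets lay between -0.12 and 0.15 with adjusted p of 0.582 or more. For HFD against ND over both sexes the 95% intervals were -0.10 to 0.21 for Slc39a6 and -0.19 to 0.22 for Slc39a14.

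Sex was not called for any member by edgeR. Males against females over the 3 diets gave 4.87% of genes, and DESeq2 called 0 members and voom 1. At an unadjusted p below 0.05 were 2 members, beside 3056 of all 19235 genes tested. The 2 were Slc30a8 at 0.14 ± 0.06 (adjusted p 0.192) and Slc39a14 at 0.18 ± 0.08 (adjusted p 0.272). Slc30a7, at 0.14 ± 0.07, reached 0.21 with an adjusted p of 0.0228 without HFD female 1. The effect of HFD differed between males and females for 3.64% of genes and for 0 of 10 members, and DESeq2 and voom called 0 members. At an unadjusted p below 0.05 were 2 members, beside 3013 of all genes tested. The effect of LPD differed for 0.0052% of genes, which is 1 gene, and for 0 of 10 members. At an unadjusted p below 0.05 was 1 member, Slc30a7 (0.41 ± 0.17), beside 806 of all genes tested. DESeq2 called 0 members, and voom called Slc30a7 (adjusted p 0.0196) in a fit that called more of all genes than edgeR did.

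The other zinc genes gave few calls. Of 20 such genes, 19 were in the table and 14 were tested. The 5 with the highest levels per length were Tmem163, a zinc transporter of vesicles, at 26.6 ± 2.81 FPKM, the importers Slc39a3 at 12.1 ± 2.11 FPKM and Slc39a9 at 10.7 ± 1.19 FPKM, Slc30a9 at 6.92 ± 0.702 FPKM and Slc39a13 at 6.68 ± 1.48 FPKM. Mtf1, the zinc sensor, had 57.0 ± 5.40 CPM and was not called in any comparison. In HFD against ND in females, where 9.33% of all genes were called, 1 of the 14 was called, and none was called in the other diet contrasts. It was Slc39a3, at 52.4 to 63.4 CPM in HFD females and 33.7 to 50.7 CPM in ND females. The groups did not overlap, and the log2 fold change was 0.49 ± 0.13 (adjusted p 0.0182 by edgeR). Some cell markers also separated these groups. The delta cell markers summed to 207 to 329 CPM in HFD females and 369 to 575 CPM in ND females. For the acinar markers the sums were 119 to 376 CPM and 413 to 752 CPM, and for the hepatocyte markers 127 to 217 CPM and 1.30 to 2.57 CPM. The part of these markers was not tested.

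For Slc39a3 the effect of HFD was lower in males than in females by a log2 value of -0.66 ± 0.19 (adjusted p 0.0471 by edgeR), with 38.2 to 50.2 CPM in HFD males and 46.6 to 50.6 CPM in ND males. Between sexes, where 4.87% of all genes were called, 2 of the 14 were called. Slc39a11 was higher in males (7.21 to 16.1 CPM against 7.31 to 9.89 CPM, log2 fold change 0.46 ± 0.11, adjusted p 0.0171). Tmem163 was also higher in males (107 to 142 CPM against 74.3 to 123 CPM, log2 fold change 0.24 ± 0.07, adjusted p 0.0319). The ranges overlapped for both genes, although 10 of 12 male libraries lay above all females for Slc39a11. For the 3 sex and interaction comparisons the list's medians were 0.151, -0.002 and -0.126, beside 0.031, 0.104 and -0.009 over all genes tested.

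Metallothionein genes also respond to glucocorticoids and to oxidants, so 10 genes known for each response were read beside Mt1. In HFD against LPD over both sexes, where Mt1 was called, 0 of 10 glucocorticoid-responsive genes were called and 1 had an unadjusted p below 0.05. Of the oxidant-responsive genes 1 of 10 was called, Txnrd1, a thioredoxin reductase, at -0.22 ± 0.06 (adjusted p 0.0226 by edgeR), which is a share near the 9.99% of all genes called. In males, where Mt1 was also called, 0 of 10 were called in either list. The medians of the lists over both sexes were -0.111 and -0.124, beside -0.054 over all genes tested. In males they were 0.079 and -0.142, beside 0.022.

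The genes whose levels ran most like those of a member over the 24 libraries were taken from 14919 genes with a mean of at least 1 CPM, by Pearson's r of log2(CPM + 0.5). For Mt1 they were Rbx1 (0.77), Esd (0.76), Ndufa3 (0.74), Gdap2 (0.73) and Calm2 (0.73). For Slc30a8 they were Apobec2 (0.80), Chic1 (0.80), Klhl7 (0.78), Lmbrd2 (0.76) and Atp6ap2 (0.76), the last of which encodes a proton pump accessory protein. For Slc30a1 they were Syce1 (0.77), Mtfp1 (0.75), Pafah1b1 (0.74), Senp3 (0.72) and AI467606 (0.71). For Mt2 they were Gm17195 (0.90), Kif23 (0.86), Ccdc90b (0.84), Ankrd42 (0.84) and 4833413G10Rik (0.83). Such values describe 24 libraries that share depth and group differences.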

How the data were processed

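Per the labels, RNA of sorted β cells was sequenced on an Illumina instrument after ribosomal RNA depletion, with tools named as cutadapt 2.10, STAR 2.7.8a, HOMER and DESeq2 and the build GRCm38.p6. How strand was counted, and by which counter, is not given in the sources used here. Raw counts per gene and FPKM were deposited by the authors. FPKM recomputed from counts, gene length and the column total matched the deposited FPKM within 0.0005.

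Counts were fitted in edgeR 4.0.16 (limma 3.58.1, R 4.3.3) as 6 group means of 24 libraries, with filterByExpr, TMM and the quasi-likelihood F test (common dispersion 0.158, 7.71 prior degrees of freedom). The 12 comparisons were adjusted by Benjamini-Hochberg over 19235 genes. The fit was run on simulated counts whose dispersion was set below the 0.158 of these data. That run therefore does not measure its error rates at the spread of these libraries. Levels are CPM after TMM scaling or FPKM, folds are log2 values ± SE with 95% intervals. Correlations used 100000 permutations within groups and a pseudocount of 0.5 CPM. Alternatives included RLE and upper-quartile scaling, no filter, DESeq2 1.42.0, limma on log2 FPKM plus 1 or 0.1, voom with library weights, fewer groups, a replicate block, the library numbers and leaving out each library.

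The 10 genes, the gene lists and the marker lists were chosen with earlier results of these data known. All 10 genes were named, with the called and the 5 highest of the other zinc genes. In each library 3 counts are the least taken as detected, and depth bounds counting error only. Gene positions were those of GENCODE M21.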

Additional observations from a re-analysis of the deposited data

Results flagged for a closer look

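In 6 of 60 groups of 4 libraries, 1 library of a member stood apart from the other 3 by Dixon's criterion, which chance alone meets in about 1 group in 20. HFD female 1 had 101.218 CPM of Slc30a7, against 62.0 to 67.5 CPM in the other HFD females. That library also had the lowest Mt2 value. ND male 4 had 37.622 CPM of Slc39a1, against 29.1 to 30.4 CPM in the other ND males. ND female 4 had 50.6271 CPM of Slc39a6, with the nearest ND female at 44.4 CPM, and 14.3967 CPM of Slc39a7, with the nearest at 10.9 CPM. LPD female 2 had 56.7772 CPM of Slc39a6, with the nearest LPD female at 48.7 CPM. LPD female 1 had 15.0187 CPM of Slc39a7, with the nearest at 8.69 CPM. In all 6 cases the library that stood apart was the highest of its group, and none of the 6 concerned a metallothionein gene.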

How the results depend on the processing

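Settings are compared by how many of the 10 genes they call. For HFD against LPD over both sexes 2 were called, and 1 (Mt1) under RLE scaling, limma on log2 FPKM plus 1, only the compared groups and the replicate block, where Slc39a1 was -0.41 with an adjusted p of 0.0503. Same-numbered libraries correlated by -0.097 to 0.158 in their deviations, with 1 of 60 pairs above 0.1, so the numbers do not pair the samples. For LPD against ND over both sexes 0 were called, but 1 under DESeq2, only the compared groups or without HFD female 1 and 4, and 4 under voom. For HFD against ND, in females 0 were called and 1 with no filter, DESeq2, log2 FPKM plus 0.1, the replicate block (Slc30a5, adjusted p 0.0452) or without HFD female 1 and 4 (Slc30a7), and in males 0, with 1 under DESeq2 or without HFD female 1 and 4, and 2 under voom or with only the compared groups. For LPD against ND, in females 0 were called, with 1 under DESeq2 and 3 under voom, and in males 0, with 3 under voom. For HFD against LPD in males 1 was called, with 2 with only the compared groups and 4 under voom. For sex 0 were called, with 1 under voom or without HFD female 1 and 4. For the difference of the HFD effect 0 became 1 without those libraries, and for that of the LPD effect 0 became 1 under voom. Voom called more genes in all too: of 19235 it called 3884 for LPD against ND over both sexes, 1451 in females and 3953 in males, 4666 for HFD against LPD in males and 1129 for the difference of the LPD effect. DESeq2 called 367 for LPD against ND in females. In each of these cases the cause was not tested.

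The library numbers above the column names rename the diets and gave 0 called for HFD against LPD over both sexes and 1 (Mt1) in males, and 2 for HFD against ND over both sexes and 1 in males. Under them Mt1 reversed to -0.38 over both sexes and to -0.70 in males (adjusted p 0.172 and 0.0477), and Slc39a1 to 0.36 (adjusted p 0.197). The value in males set columns named LPD male against columns named ND female, so it mixed sex with diet. Leaving out 1 library gave 0 to 2 called for HFD against ND over both sexes, 0 to 1 in females and 0 to 1 in males. It gave 1 to 3 for HFD against LPD over both sexes, 0 to 2 in females and 0 to 1 in males. For sex and for the difference of the HFD effect the range was 0 to 1. Counts over all genes were less stable: HFD against LPD called 1921 genes, and 933 with only the compared groups but 3663 without HFD female 2. HFD against ND over both sexes called 1384 genes, with a range of 638 to 3239, and LPD against ND 160 genes, with 76 to 3884. Mt2 had 1 to 222 counts a library.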
